A study of Mus musculus with 16 samples.

Results

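The comparison set inguinal fat of mice homozygous for the K107R form of PPARg against inguinal fat of wild-type (WT) mice, both given vehicle. It was chosen by depot, genotype and treatment and holds 4 of the 16 libraries of the series, 2 of K107R and 2 of WT. All 4 groups of mice in the series ate chow for 10 weeks and then a diet with 60% of calories from fat for 19 weeks. The vehicle mice received 1% methylcellulose by gavage for 1 week and the others rosiglitazone at 10 mg/kg in it; the labels do not say how that week lies to the diet. The K107R mice carry the exchange in every cell, so any tissue in the dissected depot can differ. The labels give neither the strain nor the number of mice behind a library. P-values thus measure library-to-library spread only, and that spread can be technical. Libraries with rosiglitazone in the same depot (2 K107R, 2 WT), and with vehicle in epididymal fat (2 K107R, 2 WT), were used to see whether genes moved in the same direction in other libraries.

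PPARg is the nuclear receptor that directs fat cell formation and lipid storage; it binds DNA together with RXR and is the target of the thiazolidinedione drugs, of which rosiglitazone is one. A SUMO protein can be joined to the lysine that K107R replaces, counted in the longer PPARg protein, and this mark is known to hold down the activity of the receptor. Arginine in its place cannot accept SUMO. Inguinal fat is the main subcutaneous depot of the mouse; it lies under the skin, near muscle, and contains a lymph node.

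The reference coding sequence of the long transcript, Pparg-201, has 505 codons, and the codon that K107R changes is AAA, a lysine codon, at chr6:115441500-115441502 (GRCm38, plus strand), in exon 3 of 7. In the shorter protein of 475 codons the same bases form codon 77. The stretch below is spliced coding sequence from the GENCODE M21 annotation, shown because it holds the residue that separates the groups, with that codon in capitals.
Pparg K107 codon and flanks: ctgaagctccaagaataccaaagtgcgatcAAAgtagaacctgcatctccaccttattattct

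Pparg itself was at 143.8 and 65.0 FPKM in the K107R libraries numbered 1 and 2, against 130.2 and 63.9 FPKM in the WT libraries numbered 1 and 2. The groups overlapped (log2 change 0.08 ± 0.22 SE, adjusted p = 1, limma), and a residue exchange leaves no mark on a gene's FPKM, so this level does not check the genotype labels. Other fat cell genes were abundant in all 4 libraries. Adiponectin, Adipoq, was at 1923 and 1442 FPKM in K107R and 2152 and 2027 FPKM in WT, and the lipid droplet gene Plin1 at 832.4 and 1154 FPKM in K107R and 757.2 and 1307 FPKM in WT. Fabp4, which carries fatty acids inside fat cells, and the desaturase Scd1 were listed at 0 in all 4 libraries, though abundant in most epididymal ones. A listed 0 in this table can therefore be a failed estimate, and the zeros of single genes below carry the same doubt. Car3 was left out because it was listed at 0 in every inguinal library except the K107R vehicle ones, where it was abundant. In what follows, pairs of values are given in the order of the library numbers.

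Because the table gives FPKM and no counts, sequencing depth is unknown. The number 2 libraries stood apart from the number 1 libraries in both genotypes. Their median FPKM was 5.36 in K107R and 6 in WT, against 9.56 in K107R and 9.59 in WT for number 1, and Actb, beta-actin, was at 25.1 FPKM in K107R and 36.7 FPKM in WT, against 865.1 FPKM in K107R and 874 FPKM in WT for number 1. Changes were therefore fitted with the replicate number as a block. This leaves each change as it is and removes the shared difference between numbers 1 and 2 from its error.

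Of 13668 genes tested, 289 passed an adjusted p of 0.05, which is 2.11%; 134 were higher in K107R (0.98%) and 155 lower (1.13%). The median change of all tested genes was -0.06 on the log2(FPKM + 1) scale, on which every change below is given and which understates the changes of low genes. Skeletal muscle genes, with 19 higher and 2 lower of 59 tested, and skin and hair genes, with 8 higher of 46 tested, are described apart. They are the members of 2 lists, 52 and 39 tested genes, and all genes whose symbols start with Myh or Tnn, or with Krt, Krtap, Lce or Sprr. Genes of other cells can therefore be among them, such as Krt19, which is also on the mesothelium list. The other 13563 genes gave 260 calls, 153 of them lower. Without the replicate block 76 genes were called (0.556%), 54 higher (0.395%) and 22 lower (0.161%), and all 76 were among the 289. Each library carried weight in the count. It was 128 without K107R library 1, 106 without K107R library 2, 67 without WT library 1 and 69 without WT library 2, and 56 of the 289 genes were called in all 4 of these fits.

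**Figure D1:**
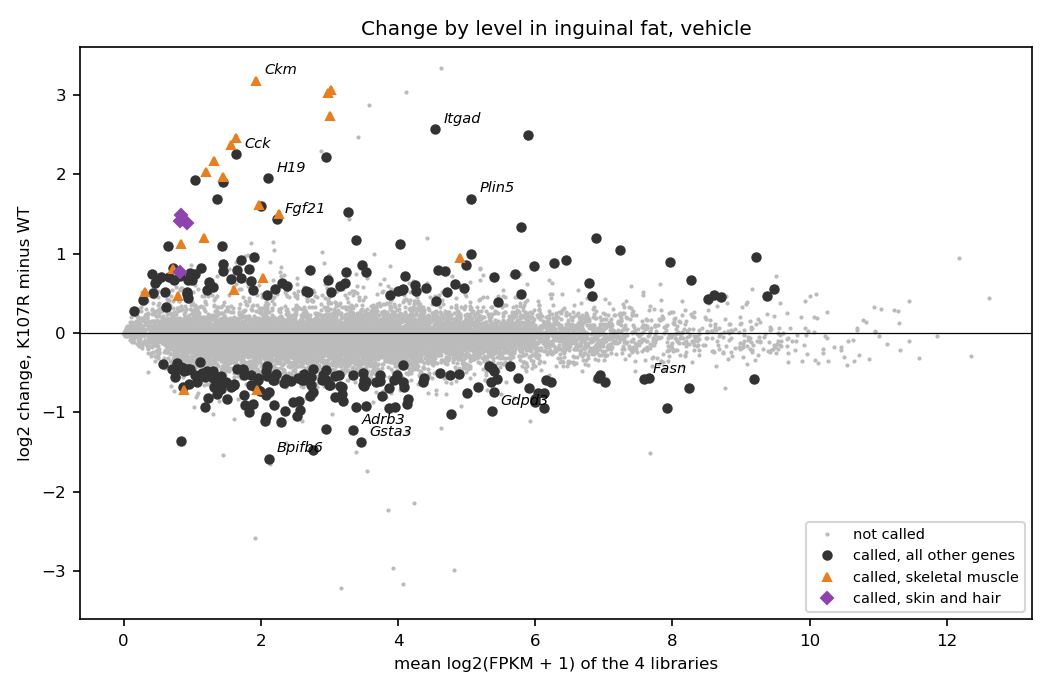
Log2 change, K107R minus WT (vertical axis), against the mean log2(FPKM + 1) of the 4 libraries (horizontal axis) for 13487 tested genes; 178 genes listed at 0 in both libraries of a group, 11 of them called, and 3 genes beyond the axis are not drawn. Called genes of muscle (triangles) and of skin and hair (diamonds) lie mostly above 0, while the other called genes (black circles) lie on both sides.

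Plin5 and Fgf21, which act in lipid use, rose. Plin5, a lipid droplet coat protein of tissues that oxidize fat (chromosome 17), was at 47.7 and 73.5 FPKM in K107R and 15.1 and 20.5 FPKM in WT (log2 1.69 ± 0.091, adjusted p = 8.45e-06). Fgf21, a hormone secreted under PPAR control (chromosome 7), was at 7.02 and 6.42 FPKM in K107R and 2.02 and 1.70 FPKM in WT (log2 1.43 ± 0.11, adjusted p = 0.000103). In both genes the lower K107R library exceeded the higher WT library. The call of Fgf21 held in every alternative tried, and that of Plin5 in all but the fit without the block.

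Further genes of fatty acid and glucose use rose by less. Pdk4, the kinase that closes glucose oxidation at pyruvate dehydrogenase, was at 123.6 and 61.0 FPKM in K107R and 44 and 26.1 FPKM in WT (log2 1.33 ± 0.22). Ehhadh, a peroxisomal enzyme of fatty acid oxidation, was at 26.5 and 16.6 FPKM in K107R and 14.8 and 10.3 FPKM in WT (log2 0.72 ± 0.15). Acacb, the acetyl-CoA carboxylase that makes malonyl-CoA at the mitochondrion, was at 17.3 and 15.6 FPKM in K107R and 12.3 and 10.8 FPKM in WT (log2 0.48 ± 0.088). Adjusted p was 0.015 for Pdk4, 0.0436 for Ehhadh and 0.0255 for Acacb. These 3 were the calls in their lists, with 1 higher of 24 insulin and glucose genes (Pdk4), 1 higher of 27 fatty acid oxidation genes (Ehhadh) and Acacb among the lipogenesis genes below. None held without the block. With a library left out, Pdk4 was called in 1 of the 4 fits and the others in none, with log2 changes between 1.10 and 1.56 for Pdk4, 0.55 and 0.89 for Ehhadh and 0.42 and 0.53 for Acacb.

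The promoter of Plin5 is shown because PPAR and RXR bind repeats of the unit AGGTCA. The window of 300 bases spans the gene's start, at chr17:56117499-56117798 on the minus strand, taken from RefSeq on GRCm38.p6, and the unit is in capitals.
Plin5 promoter: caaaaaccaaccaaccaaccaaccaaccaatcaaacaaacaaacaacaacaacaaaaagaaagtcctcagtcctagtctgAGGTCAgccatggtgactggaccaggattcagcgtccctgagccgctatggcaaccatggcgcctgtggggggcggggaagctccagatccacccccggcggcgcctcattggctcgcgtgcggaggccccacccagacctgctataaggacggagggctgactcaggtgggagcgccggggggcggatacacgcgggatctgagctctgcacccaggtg
Searched on both strands, AGGTCA stood in 16.3% of all 32851 windows of this length, and in at least 1 window of 21 of 98 called higher genes with an entry (21.4%) of 23 of 108 called lower genes (21.3%) and of 18.1% of all genes with an entry. The Fgf21 window held no AGGTCA. A pair of the relaxed unit AGGNCA with any 1 base between the copies, which can contain AGGTCA, stood in 0.381% of all windows. Counted by gene, it occurred in windows of 2 of 98 called higher genes with an entry (2.04%) and of 0 of 108 called lower genes. The share of all genes with an entry was 0.451%. Counts this small cannot set the 2 directions apart.

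Of 29 genes of PPARg targets and triglyceride storage, 2 rose and 0 fell, and the median change of the list was 0.11. Gpd1, which makes the glycerol phosphate backbone of triglyceride, was at 867.3 and 863.7 FPKM in K107R and 636.3 and 544.8 FPKM in WT (log2 0.56 ± 0.087, adjusted p = 0.0124). Rbp7, a retinol-binding protein, was at 123.7 and 148.6 FPKM in K107R and 76.4 and 99.3 FPKM in WT (log2 0.63 ± 0.099, adjusted p = 0.0123). Both calls were lost without the block. The list had 0 calls without K107R library 1, without K107R library 2 and without WT library 2, and 1 without WT library 1. The droplet protein Cidec, at 2929 and 3498 FPKM in K107R and 2286 and 2550 FPKM in WT, had a change of 0.41 that did not pass (adjusted p = 0.0831). The fatty acid transporter Cd36 was at 1700 and 431.9 FPKM in K107R and 1487 and 454.8 FPKM in WT, with overlapping groups. Of 16 genes tied to PPARg phosphorylation none was called by limma, with 4 at an unadjusted p under 0.05, 2 higher and 2 lower. How many of all tested genes pass that unadjusted p was not counted, here or for the lists below. Of 32 genes for PPARg, its partners and the SUMO pathway only the corepressor gene Nrip1 was called, at 11.8 and 9.53 FPKM in K107R and 6.97 and 6.08 FPKM in WT (log2 0.63, between 0.53 and 0.73 with a library left out, and called in none of those 4 fits).

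Among secreted factors of fat cells 3 of 26 rose and 0 fell, Fgf21 and Sfrp5 among them. Sfrp5, an antagonist of Wnt ligands, was at 408.7 and 368.5 FPKM in K107R and 246.9 and 242.4 FPKM in WT (log2 0.66 ± 0.13, adjusted p = 0.0323). Its call was lost without the block and with any of the 4 libraries left out, with the change between 0.61 and 0.72. Across the 12 libraries outside the comparison the level of Sfrp5 correlated with the mean of the muscle list at Pearson's r = 0.93, libraries that share depot, treatment and replicate number; the part of muscle in the change of Sfrp5 was not tested. Leptin, Lep, was at 1415 and 886.1 FPKM in K107R and 1171 and 607.4 FPKM in WT, and Cfd at 1877 and 890.6 FPKM in K107R and 1059 and 794.2 FPKM in WT; neither passed.

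**Figure D2:**
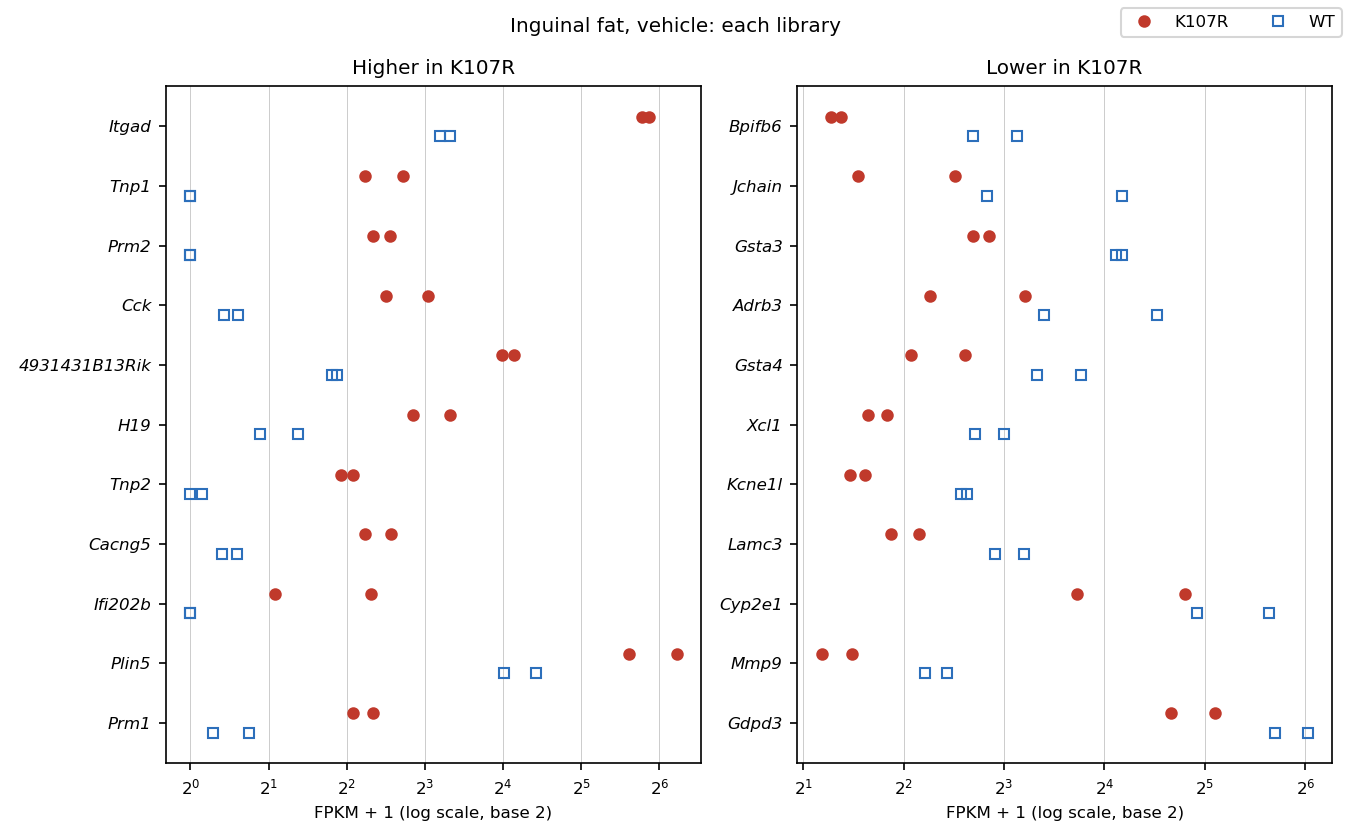
FPKM + 1 on a log axis of base 2 for 11 of the 12 named genes with the largest rise (left) and 11 of the 12 with the largest fall (right) outside muscle, skin and hair, with K107R libraries as filled circles and WT libraries as open squares. The groups of each gene do not overlap, which was a condition for naming it, and Itgad, at 53.9 and 57.5 FPKM in K107R, has the largest rise. On the left, Prm1, Prm2, Tnp1 and Tnp2 are sperm genes, and Prm2, Tnp1 and Ifi202b were listed at 0 in both WT libraries.

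The largest rise outside muscle was that of Itgad, the alpha-D integrin subunit carried by some macrophages. It was at 53.9 and 57.5 FPKM in K107R and 8.18 and 9.003 FPKM in WT (log2 2.56 ± 0.085 SE, adjusted p = 1.82e-07), with the groups far apart and the libraries of each close together. The gene lies on chromosome 7 from 128154376 to 128223816, plus strand. 4931431B13Rik, a noncoding transcript on the minus strand inside Itgad, from 128192050 to 128203328, was at 14.8 and 16.6 FPKM in K107R and 2.65 and 2.50 FPKM in WT (log2 2.22). The strand setting of the authors' counting is not given in the sources used here, so reads of these 2 genes may not be told apart. The neighbouring integrin genes differed less: Itgax was at 24.0 and 20.9 FPKM in K107R and 15.2 and 13.6 FPKM in WT (log2 0.61, adjusted p = 0.00852), and Itgam at 21.3 and 12.7 FPKM in K107R and 17.1 and 11.4 FPKM in WT, with overlapping groups. The calls of Itgad and 4931431B13Rik held in every alternative.

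Other genes that rose belong to no fat cell list. Cck, the gut and brain peptide cholecystokinin, was at 7.23 and 4.65 FPKM in K107R and 0.345 and 0.531 FPKM in WT (log2 2.25). H19, an imprinted noncoding RNA, was at 8.99 and 6.22 FPKM in K107R and 1.60 and 0.856 FPKM in WT (log2 1.95). Cacng5, a subunit that attends ion channels, was at 4.91 and 3.70 FPKM in K107R and 0.507 and 0.327 FPKM in WT (log2 1.90). The calls of all 3 held in every alternative that tested them, and a filter of 5 FPKM left Cck and Cacng5 out. Ifi202b, a DNA-binding protein of the interferon-inducible p200 family that was not on the interferon list, was at 3.97 and 1.11 FPKM in K107R and listed at 0 in both WT libraries, and its call was lost without the block, without K107R library 1 and without WT library 1. Chac1, which degrades glutathione under stress, was at 5.83 and 5.05 FPKM in K107R and 3.55 and 2.998 FPKM in WT (log2 0.59 ± 0.12), the 1 call among 20 genes of the unfolded protein and integrated stress response, lost without the block and with any library left out.

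Of 14 genes known as targets of glucocorticoids and stress hormones, 4 rose and 0 fell, and the median change was 0.48. Besides Pdk4 these were Fkbp5, a chaperone partner of the glucocorticoid receptor, the metallothionein Mt2 and the clock gene Per1. Per1 was also the 1 call of 19 circadian clock genes, whose median was -0.08. Fkbp5 was at 30.9 and 17.1 FPKM in K107R and 13.7 and 7.33 FPKM in WT (log2 1.12 ± 0.23, adjusted p = 0.0436). Mt2 was at 160.6 and 88.6 FPKM in K107R and 85.7 and 45.9 FPKM in WT (log2 0.92 ± 0.1, adjusted p = 0.00181). The groups of both genes did not overlap, but each number 2 library was lower than its number 1 partner. Per1 was at 38.3 and 35.9 FPKM in K107R and 26.8 and 22.7 FPKM in WT (log2 0.57 ± 0.1). No gene of the list was called without the block, and between 1 and 2 were called with a library left out (2 without K107R library 2, 1 in the other 3 fits); Mt2 was called in all 4.

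Of 23 lipogenesis and desaturation genes, 1 rose and 2 fell, and the median was -0.13. Fasn, fatty acid synthase (chromosome 11), was at 158.7 and 153 FPKM in K107R and 239.5 and 228.5 FPKM in WT (log2 -0.58 ± 0.085, adjusted p = 0.00791), and its call held without the block. Thrsp, the Spot 14 protein of lipogenic tissue, was at 94.3 and 115.3 FPKM in K107R and 146.7 and 173.8 FPKM in WT (log2 -0.61 ± 0.089, adjusted p = 0.00791). The gene that rose was Acacb. After rescaling the libraries by their median ratio none of the 23 was called. With a library left out, the change stayed between -0.63 and -0.53 for Fasn and between -0.64 and -0.58 for Thrsp; Fasn was called in 1 of the 4 fits and Thrsp in none.

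The 18 genes of lipolysis and its control gave 1 higher call, Plin5, and 1 lower call, Adrb3, and their median was -0.07. Adrb3, the beta-3 adrenergic receptor through which noradrenaline starts lipolysis in mouse fat cells (chromosome 8), was at 8.23 and 3.82 FPKM in K107R and 21.9 and 9.53 FPKM in WT (log2 -1.22 ± 0.23, adjusted p = 0.0287). The higher K107R library lay just under the lower WT library, and without the block the call was lost; it was also lost with any of the 4 libraries left out (log2 between -1.40 and -1.04). Cox8b, a respiratory subunit of brown and beige fat, was at 55.6 and 64.3 FPKM in K107R and 84.4 and 99.8 FPKM in WT (log2 -0.61, adjusted p = 0.0149), the 1 call among 20 brown and beige fat genes, held neither without the block nor with any library left out. Ucp1, the uncoupling protein of these cells, was at 6.74 and 3.34 FPKM in K107R and 15.7 and 7.22 FPKM in WT, and its change of -1.01 did not pass (adjusted p = 0.0763). The median of the 20 brown and beige fat genes was -0.11, against -0.06 for all tested genes. At an unadjusted p under 0.05 in limma, 3 of the 20 were higher and 4 lower. Of 30 genes of the respiratory chain and ATP synthase list, 28 had a negative change and none was called by limma. The median was -0.19, against -0.06 for all tested genes, and 5 were lower at an unadjusted p under 0.05. The shares of all tested genes with a negative change or under that p were not counted.

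The conjugating enzymes Gsta3 and Gsta4, glutathione S-transferases that detoxify lipid aldehydes and other electrophiles, gave the 2 calls among 24 antioxidant genes. Gsta3 was at 6.19 and 5.48 FPKM in K107R and 17.1 and 16.3 FPKM in WT (log2 -1.37 ± 0.12, adjusted p = 0.000357), and the call held in every alternative. Gsta4 was at 5.12 and 3.22 FPKM in K107R and 12.6 and 9.08 FPKM in WT (log2 -1.21 ± 0.2, adjusted p = 0.0149), and its call held neither without the block nor with any library left out (log2 between -1.34 and -1.08). Genes of this family have close copies that can share reads, so both levels are uncertain. Cyp2e1, a cytochrome that oxidizes ethanol and fatty acids, was at 26.9 and 12.3 FPKM in K107R and 48.9 and 29.3 FPKM in WT (log2 -1.02 ± 0.2, adjusted p = 0.0355), a call lost without the block and in 3 of the 4 fits with a library left out.

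Further falls concerned secreted and membrane proteins of several cell types. Bpifb6, of a family of lipid-binding secreted proteins, was at 1.43 and 1.59 FPKM in K107R and 5.44 and 7.72 FPKM in WT (log2 -1.58 ± 0.17, adjusted p = 0.00148). Mmp9, the gelatinase of leukocytes and matrix turnover, was at 1.81 and 1.27 FPKM in K107R and 4.41 and 3.65 FPKM in WT (log2 -0.99 ± 0.11). Nos2, inducible nitric oxide synthase, was at 3.15 and 3.09 FPKM in K107R and 7.15 and 5.89 FPKM in WT (log2 -0.86 ± 0.091). It was the 1 call of 23 inflammatory mediators, whose median was -0.21. The calls of Bpifb6, Mmp9 and Nos2 held in every alternative that tested them, and a filter of 5 FPKM left Mmp9 out. Gdpd3, a lysophospholipase D (chromosome 7), was at 33.2 and 24.3 FPKM in K107R and 64.1 and 50.9 FPKM in WT (log2 -0.98 ± 0.092), and Lamc3, a laminin chain, at 2.68 and 3.44 FPKM in K107R and 6.54 and 8.16 FPKM in WT (log2 -1.04 ± 0.093). Kcne1l, a potassium channel subunit, was at 2.06 and 1.76 FPKM in K107R and 5.20 and 4.94 FPKM in WT (log2 -1.06 ± 0.14), a call lost without the block and without WT library 2. S100b, a calcium-binding protein of Schwann cells and of fat cells, was at 3.996 and 2.65 FPKM in K107R and 8.81 and 6.12 FPKM in WT (log2 -0.97 ± 0.16). It was the 1 call of 9 Schwann cell and nerve genes, whose median was 0.14, with 5 positive and 4 negative changes. The immediate early factor Egr1 was at 14.7 and 6.06 FPKM in K107R and 27.4 and 13.4 FPKM in WT, with overlapping groups (log2 -0.94 ± 0.18). Egr1 was the 1 call of 18 immediate early genes, whose median was -0.11. The calls of S100b and Egr1 were lost without the block and in 3 of the 4 fits with a library left out. For Gdpd3 and Lamc3 the call was lost without the block and held with each library left out.

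Of 28 interferon response genes, 27 had a negative change, 6 fell and none rose, and the median was -0.48 against -0.06 for all genes. Ifit3, an antiviral protein, was at 8.88 and 4.84 FPKM in K107R and 15.7 and 11.5 FPKM in WT (log2 -0.93 ± 0.17, adjusted p = 0.0287). Igtp, a GTPase induced by interferon gamma, was at 12.8 and 12.6 FPKM in K107R and 18.6 and 21.2 FPKM in WT (log2 -0.61 ± 0.11, adjusted p = 0.0192). The immunoproteasome subunits Psmb8, at 54.4 and 60.5 FPKM in K107R and 80.4 and 93.2 FPKM in WT, and Psmb9, at 27.6 and 37.7 FPKM in K107R and 44.2 and 56.2 FPKM in WT, fell as well (log2 -0.58 and -0.61). The remaining calls were those of the factor Irf7 (log2 -0.53) and of Usp18, which removes the ubiquitin-like Isg15 (-0.57). None of the 28 was called without the block, 2 without K107R library 1, 1 without K107R library 2, and none without WT library 1 or without WT library 2; the median stayed negative in all of these fits, between -0.55 and -0.30 with a library left out. At an unadjusted p under 0.05, 22 of the 28 were lower and none higher. The share of all tested genes under that threshold was not counted, so this count stands without a background.

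The promoters of Ifit3 and Igtp are shown as those of the called interferon genes that hold the core of the interferon-stimulated response element, GAAA and GAAA with any 2 bases between, in capitals on either strand. They are RefSeq windows on GRCm38.p6, at chr19:34583279-34583578 and chr11:58199306-58199605, both on the plus strand, and the Ifit3 window holds 2 matches.
Ifit3 promoter: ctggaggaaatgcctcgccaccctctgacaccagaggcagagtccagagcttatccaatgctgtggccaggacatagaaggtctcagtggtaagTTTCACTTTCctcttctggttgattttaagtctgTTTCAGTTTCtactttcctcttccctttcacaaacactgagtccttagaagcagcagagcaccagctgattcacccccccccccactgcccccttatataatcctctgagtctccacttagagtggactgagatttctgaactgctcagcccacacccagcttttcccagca
Igtp promoter: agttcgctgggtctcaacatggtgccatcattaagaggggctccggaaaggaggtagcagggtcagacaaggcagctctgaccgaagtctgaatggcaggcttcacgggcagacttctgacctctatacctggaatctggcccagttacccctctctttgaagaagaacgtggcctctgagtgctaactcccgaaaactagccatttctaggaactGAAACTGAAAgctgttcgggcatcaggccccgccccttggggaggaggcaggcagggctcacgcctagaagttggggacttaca
The core stood in 3.44% of all windows. Counted by gene, it stood in at least 1 window of 3.99% of all genes with an entry, of 10 of 108 called lower genes (9.26%), and of 13 of 23 interferon list genes, 2 of 5 that were called and 11 of 18 that were not.

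Some genes of lymphocytes fell. Of 13 B and plasma cell genes 4 fell, of 17 T and NK cell genes 2, of 11 genes of MHC class II presentation 3 and of 7 lymph node stroma genes 1, and none rose. Jchain, which joins secreted antibodies, was at 4.69 and 1.93 FPKM in K107R and 17.1 and 6.13 FPKM in WT (log2 -1.48 ± 0.28). Cd79b, a chain of the B cell receptor complex, was at 29.9 and 33.7 FPKM in K107R and 50.2 and 57.4 FPKM in WT (log2 -0.74 ± 0.14), and Ltb, lymphotoxin beta, at 27.9 and 26.9 FPKM in K107R and 44.6 and 44.5 FPKM in WT (log2 -0.68 ± 0.11). Xcl1, a chemokine of T and NK cells that is in none of these lists, was at 2.56 and 2.13 FPKM in K107R and 7.005 and 5.53 FPKM in WT (log2 -1.12 ± 0.17), and its call held without the block but in none of the 4 fits with a library left out. The 2 T cell genes were Cd3d (log2 -0.53) and Cd4 (log2 -0.54), and the others of B cells and MHC class II were Cd22, Mzb1, H2-Oa, H2-DMb2 and Ciita. The medians were -0.61 for B and plasma cells, -0.37 for T and NK cells, -0.25 for MHC class II and -0.28 for lymph node stroma.

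The amount of lymph node in each piece of depot is not given. The 13 B and plasma cell genes summed to 241.4 and 182.6 FPKM in K107R and 332.5 and 250.7 FPKM in WT, and to between 113 and 447.8 FPKM in the 4 rosiglitazone libraries of the depot, where 11 of the 13 were called lower in K107R, with a median of -2.34. The 17 T and NK cell genes summed to 98.8 and 68.7 FPKM in K107R and 133.8 and 97.1 FPKM in WT. The part of node content in the lower lymphocyte and interferon genes was not tested. In bulk tissue, fewer cells of a type and less RNA per cell cannot be told apart. None of the B and plasma cell, T and NK cell, MHC class II or lymph node stroma genes was called without the block, and with a library left out at most 2 of the B and plasma cell genes and 1 of the MHC class II genes were called, both in the fit without K107R library 1. After rescaling, 6 of the B and plasma cell genes, 1 of the MHC class II genes and none of the T and NK cell or lymph node stroma genes were called.

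Of 24 macrophage genes 2 rose and none fell, and the median was 0.23. Trem2, the lipid receptor of macrophages in obese fat, was at 52.6 and 52.9 FPKM in K107R and 35.1 and 29.1 FPKM in WT (log2 0.71 ± 0.087, adjusted p = 0.00295), called also without the block but not without WT library 2. Itgax, described above, is the other, and its call was lost without the block. The summed level of the list was 2348 and 2469 FPKM in K107R and 2055 and 2365 FPKM in WT, with overlapping groups.

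A few vessel and blood genes fell. The median change was -0.375 in the mural cell list and -0.338 in the endothelial list, against -0.063 for all tested genes. Of 13 mural cell genes all had a negative change and 2 fell: Kcnj8, a potassium channel subunit of pericytes, was at 11.0 and 9.44 FPKM in K107R and 22.3 and 18.6 FPKM in WT (log2 -0.94 ± 0.11, adjusted p = 0.00283), and Pdgfrb at 35.9 and 32.0 FPKM in K107R and 48.3 and 42.6 FPKM in WT (log2 -0.41, adjusted p = 0.042). Among 16 endothelial genes 15 had a negative change, and 1, the receptor Tie1, fell (31.4 and 37.7 FPKM in K107R, 44.3 and 50.5 FPKM in WT, log2 -0.45). Of 4 red cell genes 3 fell; the globin Hba-a1 was at 234.5 and 240.9 FPKM in K107R and 360.4 and 408.3 FPKM in WT (log2 -0.69 ± 0.095). Only the call of Kcnj8 held without the block. It was lost without WT library 1 (log2 between -1.04 and -0.83), and those of Pdgfrb and Tie1 with each of the 4. After rescaling the libraries by their median ratio none of the red cell genes was called. With a library left out, 1 red cell gene, Hba-a1, was called without K107R library 1 and none in the other 3 fits.

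Besides the respiratory chain and PPARg phosphorylation lists, several others gave no call. These were 21 genes of branched-chain amino acid breakdown, 23 of cholesterol synthesis and uptake, 31 of collagen and matrix, 19 of fibroblasts and fat progenitors, 17 of the cell cycle, 10 of mast cells, 10 of neutrophils, 7 of mesothelium, 12 of mammary and other epithelium and 7 of epididymis. At an unadjusted p under 0.05 in limma, 1 higher and 4 lower genes stood in the branched-chain list, whose median was -0.25. There were 4 higher and 1 lower in the collagen list and 5 lower in the cell cycle list. Each of the others had 0 to 2 in either direction. These counts have no share of all tested genes to stand beside.

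**Figure D3:**
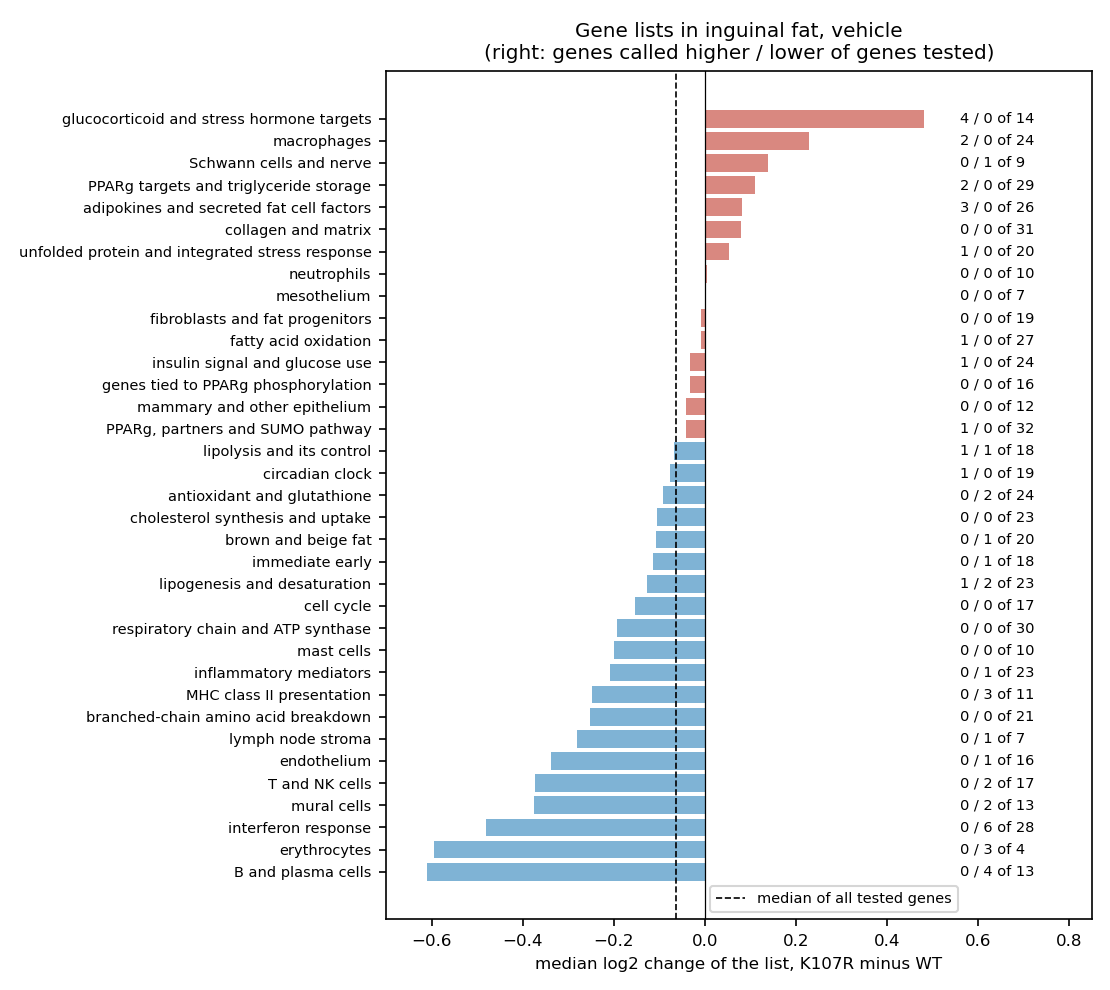
Median log2 change, K107R minus WT, of each gene list other than muscle, skin and hair, sperm and epididymis (bars, red above and blue below the median of all genes), with the median of all tested genes as a dashed line and, at the right, the genes called higher and lower of those tested. Of the lists drawn, stress hormone targets stand highest at 0.48, and B and plasma cells, red cells and interferon response lowest, at -0.61, -0.595 and -0.48.

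Many muscle transcripts and some of hair and sperm rose in K107R. Ckm, the creatine kinase of muscle, was at 12.1 and 9.03 FPKM in K107R and 0.277 and 0.254 FPKM in WT (log2 3.18 ± 0.1, adjusted p = 1.82e-07). The fast troponins rose as well: Tnnc2 was at 17.6 and 28.5 FPKM in K107R and 1.37 and 2.36 FPKM in WT, and Tnnt3 at 21.5 and 21.7 FPKM in K107R and 1.37 and 2.25 FPKM in WT. The inner root sheath keratins Krt25, at 4.37 and 4.43 FPKM in K107R, Krt71, at 3.501 and 3.56 FPKM, and Krt27, at 2.30 and 2.46 FPKM, were listed at 0 in both WT libraries. Their calls held in every alternative that tested them, and a filter of 5 FPKM left these keratins out. Krt27 and Krt71 did not vary over the 12 libraries outside the comparison. They passed the filter for testing only through the K107R libraries where they are high, and their errors come largely from libraries without signal. That their calls held therefore adds no support. The calls of Ckm, Tnnc2 and Tnnt3 held in every alternative. The 2 muscle genes that fell were Casq2 (log2 -0.71) and Myom3 (log2 -0.72). The summed levels of the tested genes of the 2 lists differed less. For 52 muscle genes they were 2033 and 1775 FPKM in K107R and 1831 and 1599 FPKM in WT. For 39 skin and hair genes they were 1102 and 614.1 FPKM in K107R and 1064 and 682.5 FPKM in WT. Ckm, the troponins and the keratins named above make up little of these sums. The sums therefore do not measure how much muscle or hair tissue a library holds.

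Sperm transcripts, put on a list after their values were seen, were in both K107R libraries too. Of 16 tested 6 were higher and none lower. The protamine Prm2, at 4.84 and 4.04 FPKM, and the transition protein Tnp1, at 3.71 and 5.58 FPKM in K107R, were listed at 0 in WT, and Prm1 was at 3.23 and 4.07 FPKM in K107R and 0.226 and 0.682 FPKM in WT. The sperm genes summed to 27.5 and 23.8 FPKM in K107R and 4.90 and 5.67 FPKM in WT, and to at most 4.73 FPKM in the other inguinal libraries. In epididymal K107R vehicle fat Prm2 was at 31.5 and 28.5 FPKM, and it was listed at 0 in epididymal WT vehicle fat. Epididymis genes, which summed to up to 3800 FPKM in epididymal fat, summed to 0.0181 and 0.00697 FPKM in inguinal K107R and 0.0597 and 0 FPKM in inguinal WT. The part of muscle, skin or sperm RNA in other changes was not tested. Without the muscle, skin, hair and sperm genes and all genes listed at 0 in a group, 250 genes were called, 97 higher and 153 lower.

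**Figure D4:**
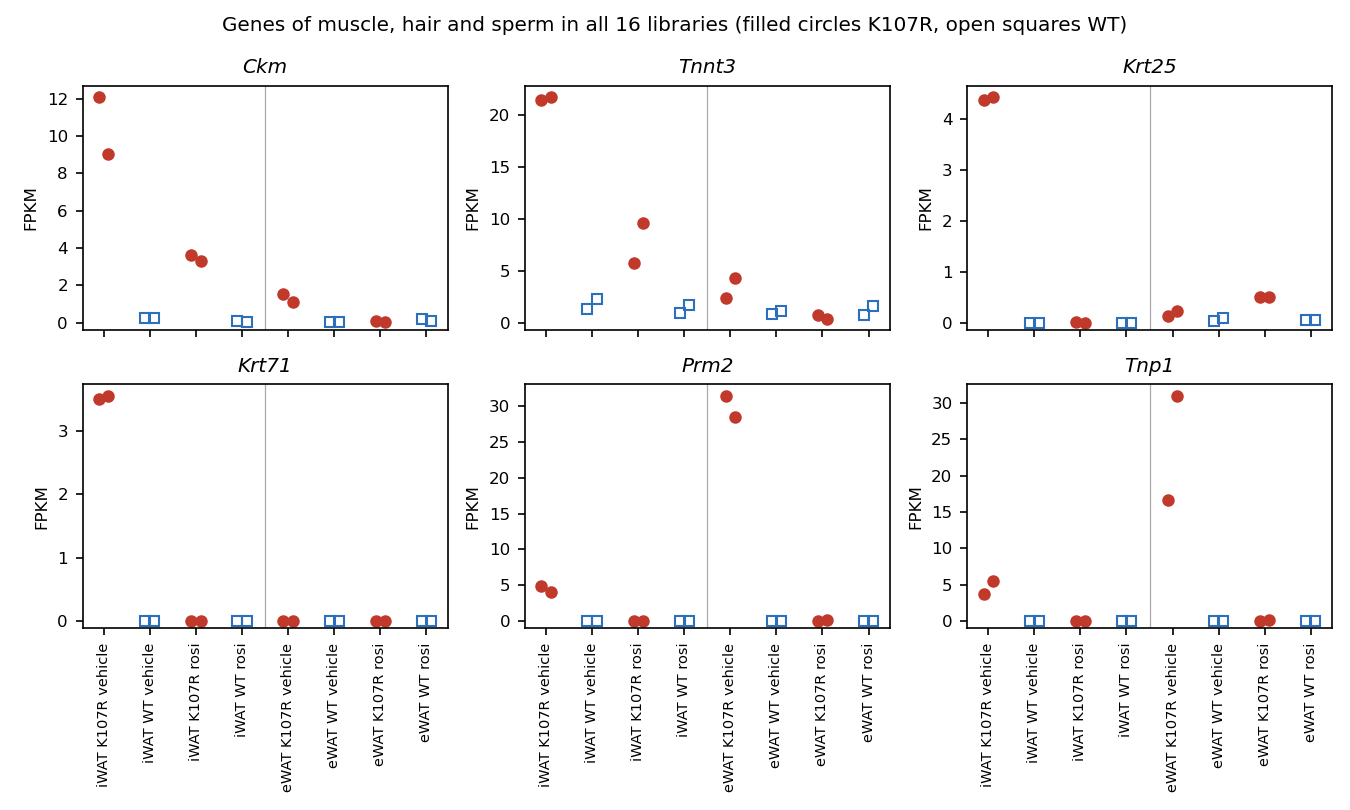
FPKM of 2 muscle genes (Ckm, Tnnt3), 2 hair genes (Krt25, Krt71) and 2 sperm genes (Prm2, Tnp1) in each of the 16 libraries (iWAT, inguinal; eWAT, epididymal; rosi, rosiglitazone), K107R as filled circles and WT as open squares, 1 point per library. Krt71 is at 3.501 and 3.56 FPKM in K107R inguinal fat with vehicle and listed at 0 in the other 14 libraries, while the sperm genes are highest in K107R epididymal fat with vehicle.

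The 289 called genes were then looked up in the other 2 K107R and WT comparisons, whose changes come from other libraries. The labels do not say whether the epididymal and inguinal libraries come from the same mice. Agreement between the depots can therefore carry what the same animals share. The error and the block were estimated over all 16 libraries, so each gene has 1 standard error for all 3 comparisons. A gene with a small error is more readily called in each of them, and the shares of shared calls below are therefore no independent replication. In inguinal fat with rosiglitazone 260 of them (90%) had the same sign, against 68.4% of all tested genes, and 194 (67.1%) were called in the same direction, where 9.36% of all genes were called; 5 were called in the opposite direction. In epididymal fat with vehicle 258 (89.3%) had the same sign, against 65% of all genes, and 140 (48.4%) were called in the same direction, where 8.3% of all genes were called; 7 were opposite. In all 3 comparisons 43 genes were called higher and 58 lower; over all genes, 2.92% were called higher and 6.45% lower with rosiglitazone, and 4.77% higher and 3.53% lower in epididymal fat. The share in epididymal fat includes the sperm genes, of which 15 of 16 were called higher in K107R there. So were 7 of 7 epididymis genes and 11 of 12 genes of mammary and other epithelium. The part of such tissue in the epididymal changes was not tested.

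Single genes differed in how far this held. Fgf21 with rosiglitazone was at 15.4 and 14.4 FPKM in K107R and 3.16 and 3.54 FPKM in WT. Itgad with rosiglitazone was at 41.1 and 44.0 FPKM in K107R and 2.76 and 3.24 FPKM in WT, which is a larger difference than with vehicle (difference of the changes, vehicle minus rosiglitazone, -0.88). Both genes were thus higher in each K107R library than in either WT library in both treatments. Gsta3 was lower in K107R with rosiglitazone, at 3.52 and 3.45 FPKM against 11.8 and 13.1 FPKM in WT, and not in epididymal fat, at 17.0 and 13.0 FPKM in K107R and 14.3 and 12.8 FPKM in WT.

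The test of the difference itself called 345 genes (2.52%) between vehicle and rosiglitazone in inguinal fat and 451 genes (3.3%) between inguinal and epididymal fat with vehicle. Cd79b with rosiglitazone was at 8.78 and 11.0 FPKM in K107R and 76.0 and 104.3 FPKM in WT, so that its K107R change was 2.32 less negative with vehicle. For Thrsp the rosiglitazone values were 53.3 and 72.5 FPKM in K107R and 250.5 and 317.2 FPKM in WT, and for Gdpd3 13.7 and 10.7 FPKM in K107R and 79.0 and 68.8 FPKM in WT. Fkbp5 with rosiglitazone was at 47.2 and 26.8 FPKM in K107R and 50.9 and 28.9 FPKM in WT, with overlapping groups, and in epididymal fat with vehicle at 36.6 and 19.4 FPKM in K107R and 11.3 and 8.58 FPKM in WT.

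**Figure D5:**
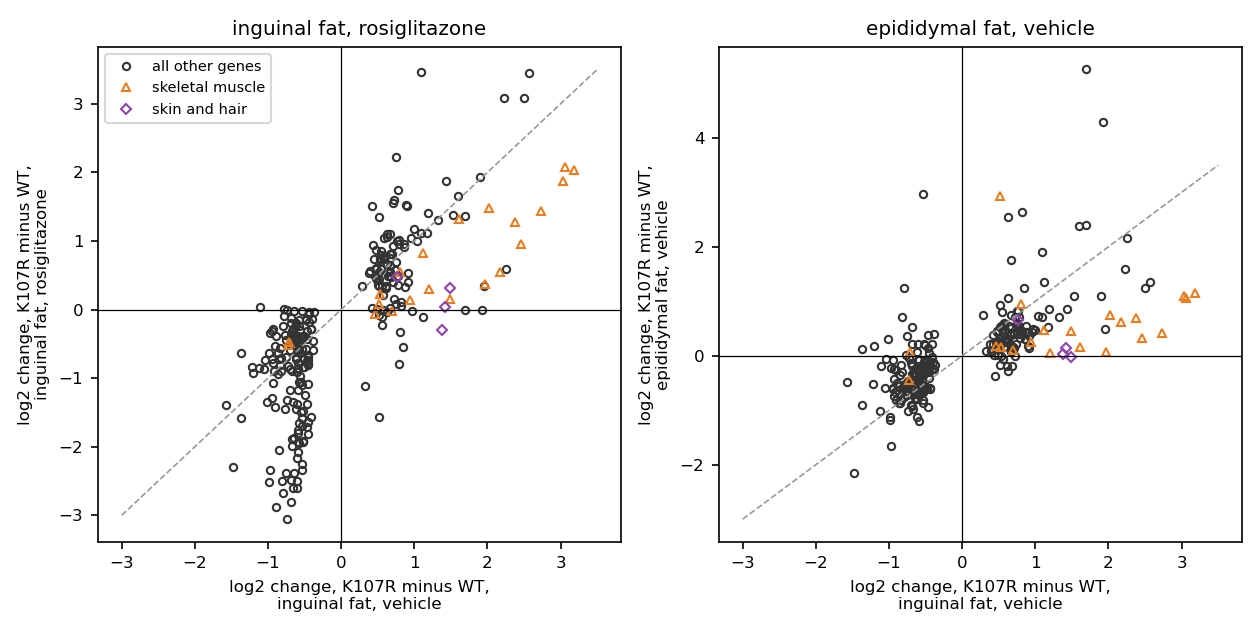
Log2 change, K107R minus WT, of the 278 called genes drawn, in inguinal fat with vehicle (horizontal axes) and, in libraries that share none with it, in inguinal fat with rosiglitazone (left) and epididymal fat with vehicle (right); dashed lines mark equal change, and the 11 called genes listed at 0 in WT are left out. Most points lie at the lower left and the upper right, muscle genes (triangles) that rose lie mostly below the line, and Cd79b reaches -3.06 with rosiglitazone.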

How the data were processed

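Per the labels, 4 ug of total RNA per library went into a strand-preserving mRNA kit, sequenced as single-end 75 nt reads. The deposited values are FPKM per gene. The submitters' processing notes name CASAVA 1.8.2, TopHat2 2.0.12, Cufflinks 2.2.1 and mm10; the annotation and strand setting are not given in the sources used here. Genes at 1 FPKM or more in at least 2 of 16 libraries were kept (13668 of 14022), and Car3 was left out. Log2(FPKM + 1) was fitted with limma 3.58.1 in R 4.3.3, with 8 group means, the replicate number as a block over 16 libraries, a mean-variance trend, two-sided tests and Benjamini-Hochberg adjustment within each comparison at 0.05. All adjusted p-values come from this limma fit. The scripts were tested on simulated data. Same-numbered libraries deviated together in 28 of 28 pairs of groups, with correlations between 0.121 and 0.791 (0.699 for the compared groups), so the numbers pair the libraries; the labels do not say what they share. Named were the 12 genes per direction with the largest change outside muscle, skin and hair whose groups did not overlap and whose higher mean was 2 FPKM or more, up to 4 called genes per list, 5 muscle and 5 skin genes, and Pparg. Casq2, Myom3, Itgam, Actb, Cd36, Fabp4, Scd1, Adipoq, Plin1, Lep, Cfd and Ucp1 were named after their values were seen. Members and lists were chosen with earlier results of these data known, and the sperm and epididymis lists after the values were seen. Some named genes are not reported here. Alternatives changed the block, libraries, pseudocount, filter, scaling, trend and left-out library.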

Additional observations from a re-analysis of the deposited data

Results flagged for a closer look

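The K107R minus WT change was compared between vehicle and rosiglitazone in inguinal fat, and between inguinal and epididymal fat with vehicle, by testing the difference of the changes for 94 named genes within the fit across all genes (limma, Benjamini-Hochberg). Between vehicle and rosiglitazone 27 of them differed, and between the depots 34. Of all 13668 tested genes 345 (2.52%) differed between the treatments and 451 (3.3%) between the depots. Many of the 94 were named because their change in inguinal fat with vehicle was large or called. That same change enters both differences, so more differing genes among the 94 are built in by the choice. The counts of 27 and 34 therefore cannot be judged against the shares of all genes.

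The change was more positive with vehicle than with rosiglitazone by a log2 difference of 1.662 for Cck, 1.804 for Cd22, 1.816 for Cd3d, 1.717 for Cd4, 2.316 for Cd79b, 1.166 for Ciita, 1.143 for Ckm, 0.586 for Fasn, 1.532 for Gdpd3, 1.613 for H19, 1.882 for H2-DMb2, 1.982 for H2-Oa, 2.118 for Ltb, 1.367 for Mzb1, 1.688 for Prm1, 1.494 for Tcap, 1.377 for Tchh, 1.552 for Thrsp, 1.929 for Tnp2 and 1.027 for Tpsab1. It was more negative with vehicle for 2 genes, by -0.882 for Itgad and -0.944 for Lrrn4. For genes listed at 0 in a group no log2 difference is given; the adjusted p of the difference was 7.69e-07 for Krt25, 2.91e-06 for Krt27, 6.09e-07 for Krt71, 3.66e-05 for Prm2 and 0.00134 for Tnp1. Many of the genes with the largest differences are lymphocyte genes, whose K107R change was more negative with rosiglitazone. Lrrn4 and Tpsab1 were not called with vehicle (log2 0.121 and -0.216), and their changes with rosiglitazone were 1.065 and -1.243. Krt27 and Krt71 passed the filter only through the K107R vehicle libraries of inguinal fat, so their p-values here and between the depots add no support.

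The change was more positive in inguinal than in epididymal fat by a log2 difference of 0.794 for Cacng5, 2.031 for Ckm, 1.461 for H19, 1.213 for Itgad, 0.79 for Itgax, 0.769 for Mt2, 0.904 for Nrip1, 1.508 for Sprr1a, 2.133 for Tcap, 1.278 for Tchh, 1.034 for Thbs1, 1.987 for Tnnc2, 2.3 for Tnni2, 1.93 for Tnnt3 and 0.561 for Trem2. It was more negative in inguinal fat by -0.701 for Alas2, -1.097 for Bpifb6, -0.827 for Cox8b, -1.329 for Cyp2e1, -1.5 for Gsta3, -1.377 for Gsta4, -1.213 for Hba-a1, -1.119 for Hbb-b2, -0.982 for Lamc3, -0.704 for Plin5, -3.566 for Prm1, -1.732 for Spint1, -2.616 for Spint2 and -2.369 for Tnp2. For the genes listed at 0 in a group the adjusted p of the difference was 9.23e-08 for Krt25, 2.12e-07 for Krt27, 4.2e-08 for Krt71, 1.86e-06 for Prm2 and 0.00157 for Tnp1. The muscle and hair genes were further apart between genotypes in inguinal fat, and the sperm genes in epididymal fat. Spint1 and Spint2 were not called in inguinal fat (log2 -0.144 and -0.384), and in epididymal fat they were higher in K107R (log2 1.588 and 2.232).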

How the results depend on the processing

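The fit without the replicate block called 76 genes, 54 higher and 22 lower, against 289, 134 and 155; 42 were called alike in the rosiglitazone libraries and 33 in epididymal fat, against 194 and 140, and 131 differed between treatments, against 345. The block fitted in each depot called 490 (303 lower), the inguinal libraries alone 471 (275 lower), and the 4 compared libraries alone 220 (93 lower), 153 of them among the 289. A filter of 5 FPKM called 112 (51 higher, 61 lower). Rescaling by the median ratio called 438 (228 higher), of which 186 were among the 289, with 247 called alike in epididymal fat. The share called higher was 46.4%, and 71.1% without the block, 56.6% with a pseudocount of 0.1, 36% with 10 and 57.7% in the 4 libraries alone. With a library left out, 67 to 128 were called, 45 to 79 higher and 18 to 68 lower; 44 to 80 were called alike with rosiglitazone and 40 to 79 in epididymal fat, and 200 to 291 differed between treatments. The share called higher was then 46.9% without K107R library 1, 74.5% without K107R library 2, 73.1% without WT library 1 and 65.2% without WT library 2. Neither Pparg nor Krt19 was called, and their sign turned: Pparg lay between -0.158 and 0.326, at -0.158 without K107R library 1 and -0.091 without WT library 2, and Krt19 between -0.258 and 0.043, at 0.043 without WT library 1. The causes were not tested. Leaving out the epididymal K107R libraries, chosen after seeing the data, gave 374 (rosiglitazone) and 223 (vehicle). Of 74 named called genes, 22 kept their call in every alternative. These 22 include Krt27 and Krt71, for which this adds no support, as stated above. An alternative whose filter left a gene untested was not counted against that gene. Depth is unknown, so it sets no limit that can be stated here.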
